A study of Mus musculus with 8 samples.

Results

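Thrombospondins are secreted, calcium-binding glycoproteins of the extracellular matrix, and the genes described here are Thbs1, Thbs2, Thbs3 and Thbs4 together with Cd36 and Cd47, which encode receptors for them. The 6 genes were taken by name from a table of 20681 genes, and each occurred there once. They were measured by poly-A RNA sequencing in 8 libraries from mouse knee joints, 4 of them labelled as control and 4 as knockout of Loxl2, which encodes a collagen-crosslinking enzyme. All joints came from Acan-Cre;Loxl2 fl/fl mice, in which Cre is driven by the aggrecan gene of cartilage cells and cuts out Loxl2 where it is active. The Acan-Cre stock cited in the labels is, as background, a knock-in of a Cre that works only once tamoxifen is given. The control libraries are named Vehicle_DMM_LOXL2wt and the others KO_DMM_LOXL2ko. Both groups carry the letters DMM, an abbreviation left unexplained there that usually means surgical destabilisation of the medial meniscus. Age, sex, time after injury and the agent given to the knockout mice are not given in the sources used here. Nothing states that the replicates were separate animals, so p-values measure the spread between these libraries.

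Thrombospondins 1 and 2 form trimers. They carry type 1 repeats, which bind CD36 and inhibit the growth of blood vessels, and thrombospondin 1 can also release TGF-beta from its latent complex. Thrombospondins 3 and 4, like cartilage oligomeric matrix protein (Comp), form pentamers without type 1 repeats, and thrombospondin 4 and Comp are matrix proteins of tendon and cartilage. CD36 also takes up long-chain fatty acids in muscle, fat cells and capillaries. CD47 binds thrombospondin 1 and is the "do not eat me" ligand that macrophages read through SIRPA.

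On the mm10 build, Thbs1 lies on chromosome 2 from 118111876 to 118127133 (plus strand) and is overlapped on the opposite strand by Gm29233. Thbs2 lies on chromosome 17 from 14665500 to 14694235 (minus strand). Thbs3 lies on chromosome 3 from 89215180 to 89226837 (plus strand) and is overlapped on the opposite strand by Mtx1, so that reads of both could be mixed if strand was not used in counting, which is not stated. Thbs4 lies on chromosome 13 from 92751590 to 92794818 (minus strand). Cd36 lies on chromosome 5 from 17781690 to 17888801 (minus strand) and Cd47 on chromosome 16 from 49800533 to 49915010 (plus strand), and no annotated gene overlaps either.

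Start-site sequences are shown for Thbs2, the member with the largest rise, for Thbs4, the thrombospondin of highest level, and for Cd36, the member that fell. Each is the 250 bases before the RefSeq transcript start on GRCm38.p6, 5' to 3' on the strand of the gene. They are chr17:14694263-14694512 for Thbs2, chr13:92794819-92795068 for Thbs4 and chr5:17835897-17836146 for Cd36, all on the minus strand. The Cd36 start lies inside the span that the gene has in the GENCODE annotation, which begins further upstream. Capitals mark matches, on either strand, to the TATA box or TEAD site letters spelled out after the sequences.
Thbs2: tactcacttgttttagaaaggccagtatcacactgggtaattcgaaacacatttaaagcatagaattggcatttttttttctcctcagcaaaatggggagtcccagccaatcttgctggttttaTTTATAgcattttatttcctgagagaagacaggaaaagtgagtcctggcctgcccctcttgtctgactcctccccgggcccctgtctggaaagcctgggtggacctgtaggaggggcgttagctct
Thbs4: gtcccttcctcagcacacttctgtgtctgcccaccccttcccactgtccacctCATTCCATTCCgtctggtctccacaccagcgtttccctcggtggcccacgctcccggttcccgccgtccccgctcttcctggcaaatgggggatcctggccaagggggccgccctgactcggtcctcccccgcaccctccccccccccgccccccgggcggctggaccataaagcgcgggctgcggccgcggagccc
Cd36: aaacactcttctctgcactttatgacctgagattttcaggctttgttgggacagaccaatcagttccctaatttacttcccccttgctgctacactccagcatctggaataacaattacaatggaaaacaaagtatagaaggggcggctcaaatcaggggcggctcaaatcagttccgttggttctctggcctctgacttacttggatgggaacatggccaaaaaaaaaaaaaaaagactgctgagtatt

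Searched on both strands, the Thbs2 window held 1 match to TATAAA, whose first base lies 126 bases before the start, and 12.4% of all 32851 windows of this length held such a match. The Thbs4 window held 2 matches to GGAATG, beginning 197 and 192 bases before the start and overlapping by 1 base, against 12.6% of windows with any. The SMAD element GTCTG, present in 42.2% of windows, occurred at 2 places in each of the Thbs2 and Thbs4 windows and at 1 in that of Cd36. The windows of Thbs3 and Cd47 held none of these 3 motifs. Thbs1 had no entry in the set of start-site sequences used and was not searched. Of the 5 members with an entry, 0 held an AP-1 site (TGANTCA), which occurs in 6.7% of windows. An E-box (CANNTG, in 66.2% of windows) occurred 1 time each for Thbs2, Thbs3, Thbs4 and Cd36. A match in letters is a description of the window only. GC content was 46.8% for Thbs2, 70.8% for Thbs4 and 43.2% for Cd36.

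The libraries held 13991000 to 17411617 reads assigned to genes, and within them the 6 members had from 300 to 11202 reads each. Loxl2 itself was not lower but higher in the libraries labelled knockout (log2 difference 1.44, limma adjusted p = 0.0294), although neither DESeq2 (adjusted p = 0.0659) nor edgeR (adjusted p = 0.0669) called it. The control mean was 519 ± 411 normalised reads against 1210 ± 329 (SD, n = 4 per group) under the knockout label, with control replicate 3 at 1135 and the other controls at 282, 349 and 311. The groups are therefore called by their labels. A gene was called at a limma p-value, adjusted over 14949 genes, under 0.05. By this rule 23.2% of all genes tested were called, 11.6% of the tested genes being higher under the knockout label and 11.6% lower. An unadjusted limma p under 0.05, used for some counts below, was reached by 5741 of the 14949 genes. The groups were fully apart for 11.7% of tested genes with the knockout label above and for 13.4% with it below. All 6 members passed the filter on low values, and 4 were called: Thbs2, Thbs3 and Thbs4 higher, and Cd36 lower. Only 2, Thbs2 and Cd36, were called when control 1 or 2 or knockout 2 or 4 was removed. Thbs1 and Cd47 were not called. The plot of each library shows these values.

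**Figure D1:**
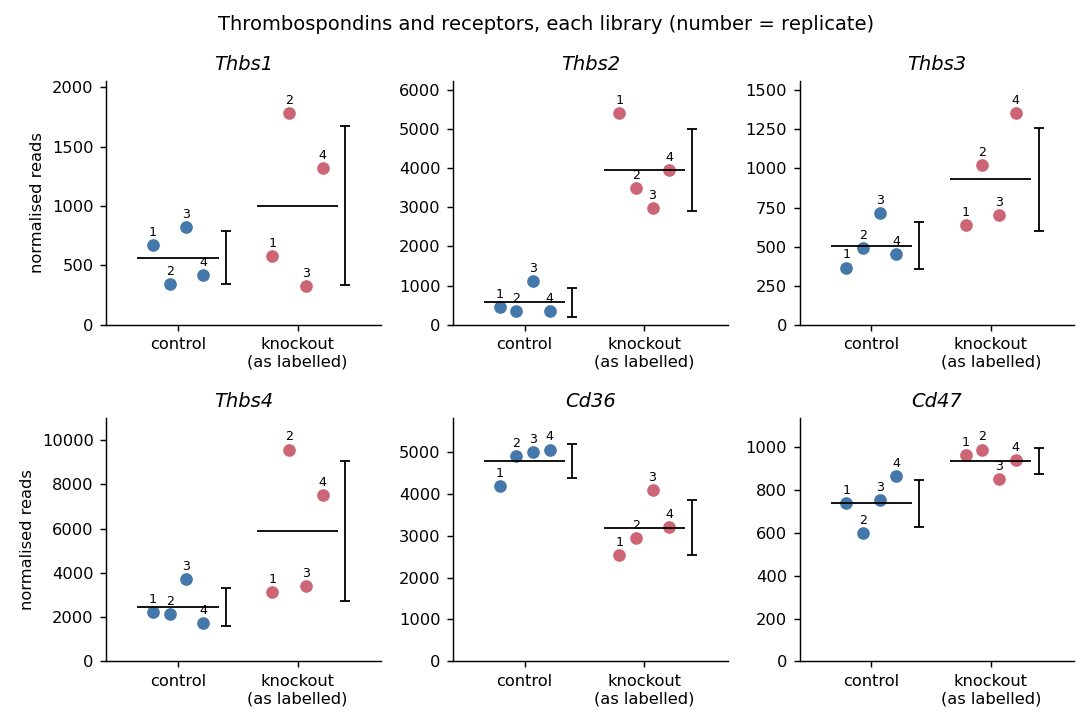
Normalised reads of the 6 genes in each library; points are libraries with their replicate number, lines are group means and bars beside them are 1 SD (n = 4). The groups are apart for Thbs2 and Cd36, while in Thbs1, Thbs3 and Thbs4 knockout replicates 2 and 4 lie above replicates 1 and 3.

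Thbs2, whose product binds matrix metalloproteinase 2 and shapes collagen fibrils, changed most. Control replicates 1 to 4 had 461, 340, 1127 and 356 normalised reads, and the libraries labelled knockout had 5410, 3491, 2971 and 3949. Every library labelled knockout was above every control library, and control replicate 3 was the highest control. The means were 571 ± 375 and 3955 ± 1049 (SD, n = 4 each), a 6.93-fold ratio. The limma estimate on the log2 scale was 2.94 (SE 0.35, adjusted p = 0.00397), and the exact two-sided permutation p was 0.0286, the smallest that 4 against 4 libraries can give. By size of rise Thbs2 ranked 23 among the 14949 genes. Leaving out any single library gave differences of 2.76 to 3.33, all called.

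Thbs1, whose product activates latent TGF-beta and is the form stored in platelets, had 671, 339, 823 and 422 normalised reads in the control libraries and 578, 1785, 326 and 1324 in those labelled knockout. Knockout replicates 2 and 4 were above every control, while replicate 3 was below them all. The range from lowest to highest library was 5.47-fold within the knockout group and 2.43-fold within the control group. The means of 564 ± 223 and 1003 ± 671 gave a log2 difference of 0.62 with a 95% interval from -0.48 to 1.73 (limma adjusted p = 0.385; exact permutation p = 0.371). The difference moved from 0.25 without knockout replicate 2 to 1.06 without knockout replicate 3, and was called in neither fit.

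Thbs4, the thrombospondin of tendon and ligament, had 2231, 2134, 3713 and 1722 normalised reads in the control libraries and 3119, 9581, 3403 and 7526 in those labelled knockout. Replicates 1 and 3 of the knockout group lay below control replicate 3, so the groups overlapped. The means were 2450 ± 871 and 5907 ± 3171, which limma put at 1.16 on the log2 scale (SE 0.37, adjusted p = 0.0474). The exact permutation p was 0.0857. The call was lost when any of 5 libraries was removed. Removing control 1, 2 or 4 gave limma adjusted p-values of 0.0863, 0.108 and 0.115, and removing knockout 2 or 4 gave 0.106 and 0.129.

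Thbs3, a pentameric thrombospondin found in growing skeleton, had 366, 491, 715 and 451 normalised reads in the control libraries and 637, 1020, 705 and 1356 in those labelled knockout. Control replicate 3 lay above knockout replicates 1 and 3. The means were 506 ± 149 and 929 ± 329, which limma put at 0.85 on the log2 scale (SE 0.26, adjusted p = 0.0400). The exact permutation p was 0.0857. Its call depended on the same 5 libraries as that of Thbs4. Limma adjusted p-values were 0.0890, 0.0867 and 0.0895 when control 1, 2 or 4 was removed, and 0.0950 and 0.101 when knockout 2 or 4 was. Mtx1 on the opposite strand, looked at because of the overlap, was itself called higher, from 231 ± 10.6 to 285 ± 13.2 (log2 difference 0.30, limma adjusted p = 0.0445).

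Comp, the fifth gene of the family, had the same order of libraries as Thbs3 within the knockout group, replicates 4, 2, 3 and 1 from high to low. It had 3907, 3985, 6974 and 2565 normalised reads in the control libraries and 5810, 8731, 6151 and 11075 in those labelled knockout. Control replicate 3 lay above knockout replicates 1 and 3. The log2 difference was 0.91 with a 95% interval from 0.25 to 1.57 (limma adjusted p = 0.0501; exact permutation p = 0.0857), and it was called without control replicate 3 (1.17, adjusted p = 0.0122) or knockout replicate 3 (1.01, adjusted p = 0.0476). Comp was also called by DESeq2 (adjusted p = 0.0134), after quantile normalisation (1.18, limma adjusted p = 0.0309), at a pseudocount of 5 (limma adjusted p = 0.0492) and after scaling on summed values (limma adjusted p = 0.0334).

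Cd36 was the member that fell. The control libraries had 4181, 4891, 4983 and 5052 normalised reads and those labelled knockout 2545, 2943, 4075 and 3193. Every control library was above every library labelled knockout, and knockout replicate 3 came closest to the controls. The means were 4777 ± 402 and 3189 ± 648, so the control level was 1.50-fold that of the knockout group. Limma put this at -0.60 on the log2 scale (SE 0.14, adjusted p = 0.0152), and the exact permutation p was 0.0286. The estimate lay between -0.73 and -0.50 when any library was left out, called each time. After quantile normalisation it was -0.34 and not called (limma adjusted p = 0.0976).

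Cd47 had 738, 598, 753 and 864 normalised reads in the control libraries and 963, 990, 852 and 940 in those labelled knockout. Only control replicate 4 lay above a library labelled knockout, replicate 3. The means were 738 ± 109 and 936 ± 59.9, a log2 difference of 0.35 with a 95% interval from 0.10 to 0.61 (limma adjusted p = 0.0502; exact permutation p = 0.0571). Without control replicate 4 it was 0.43 and called (adjusted p = 0.0359), and so it was without knockout replicate 3 (0.40, adjusted p = 0.0433). DESeq2 on the whole reads also called it (adjusted p = 0.0328), while edgeR did not (adjusted p = 0.0523).

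**Figure D2:**
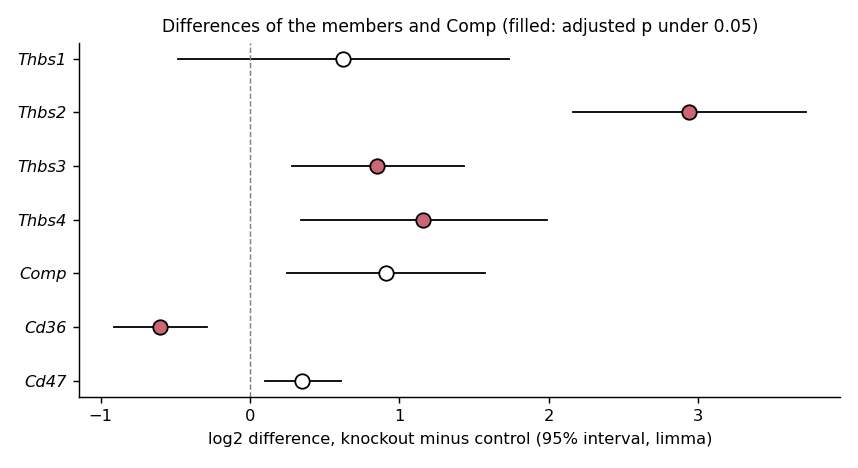
Log2 difference between the groups, knockout minus control as labelled, for the 6 genes and Comp; points are limma estimates, lines their 95% intervals, and filled points passed an adjusted p under 0.05. Thbs2 lies apart at 2.94, Cd36 is below 0 at -0.60, and the interval of Thbs1 spans 0.

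Within-library ratios, which do not depend on how libraries are scaled, were compared for the 15 pairs of members by exact permutation tests. For 8 pairs the groups did not overlap, each with an exact permutation p of 0.0286, the smallest possible here. Their adjusted p over the 15 pairs was 0.0536, so 0 passed 0.05 after adjustment (9 did without knockout replicate 3). With that smallest p, any pair could pass only if more than 8 pairs reached it, so the adjusted count says little about single pairs. The 8 are listed next. These non-overlapping pairs were the 5 with Thbs2 and those of Cd36 with Thbs3, Thbs4 and Cd47. Thbs2 went from level with Thbs1 in the control group (mean log2 ratio of Thbs1 to Thbs2 of 0.08 ± 0.42) to well above it (-2.24 ± 1.14). The log2 ratio of Thbs2 to Thbs3 differed by 2.09 and that to Thbs4 by 1.78. The ratio of Cd36 to Cd47 differed by -0.95, from a mean log2 ratio of 2.70 ± 0.24 to 1.75 ± 0.37. The log2 ratio of Thbs3 to Thbs4 went from -2.26 ± 0.30 to -2.57 ± 0.45 (exact permutation p = 0.314). That of Thbs1 to Thbs3 went from 0.11 ± 0.59 to -0.12 ± 0.78 (exact permutation p = 0.657).

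To compare levels between genes, normalised reads were divided by the length of the merged exons, which assumes that all annotated exons were used. In the control libraries the order per kilobase was Cd36 at 1331 ± 112, Thbs4 at 745 ± 265, then Cd47 at 118 ± 17.4, Thbs3 at 105 ± 30.9, Thbs1 at 92.8 ± 36.8 and Thbs2 at 81.5 ± 53.5. The values of the last 4 overlapped, and Thbs2 was lowest in 3 of the 4 controls. In the libraries labelled knockout Thbs4 came first at 1796 ± 964, followed by Cd36 at 888 ± 181 and Thbs2 at 565 ± 150. Thbs3 at 193 ± 68.3, Thbs1 at 165 ± 111 and Cd47 at 149 ± 9.55 overlapped one another. Thbs4 and Cd36 overlapped there, as did Cd36 and Thbs2, while the lowest Thbs2 value of 424 was above the highest of Thbs1, Thbs3 or Cd47.

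The summed level of the 4 thrombospondins was 930, 855, 1574 and 737 normalised reads per kilobase in the control libraries and 1948, 3917, 1659 and 3351 in those labelled knockout. The groups did not overlap, although control replicate 3 and knockout replicate 3 were close. The log2 difference was 1.38 (exact permutation p = 0.0286) and the means differed 2.65-fold. Thbs4 made up 71.0 to 75.9% of the sum in every control library and 48.7, 74.4, 62.4 and 68.3% in the libraries labelled knockout. Thbs2 supplied 7.07, 5.68, 10.2 and 6.89% in the control libraries and 39.7, 12.7, 25.6 and 16.8% in those labelled knockout, which do not overlap (exact permutation p = 0.0286, adjusted over 4 shares p = 0.114). Within the knockout group, replicate 1 had the largest Thbs2 share and the smallest Thbs4 share, and replicate 2 the reverse.

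**Figure D3:**
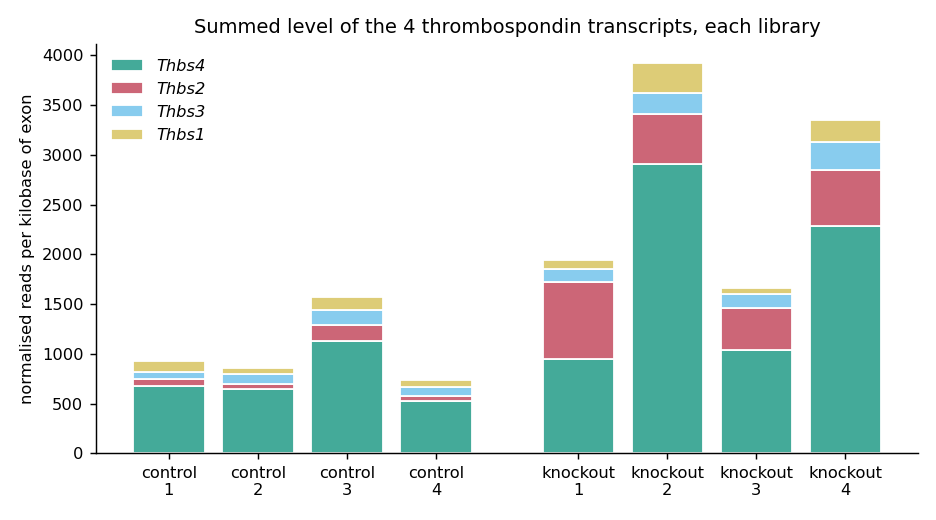
Stacked bars give, for each library, the normalised reads per kilobase of merged exon of Thbs4, Thbs2, Thbs3 and Thbs1. Thbs4 is the largest part of every bar, and the Thbs2 part is 48.6 to 161 in the control libraries and 424 to 773 in those labelled knockout.

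A knee joint holds several tissues, and in such bulk samples fewer cells of a type and less RNA per cell cannot be told apart. Markers of several cell types moved with the groups. For the counts below, 11.6% of all genes tested were called higher and 11.6% lower. The 16 skeletal muscle markers summed to 2362254 to 2571313 normalised reads in the control libraries and to 1158209 to 1618500 in those labelled knockout, and 6 of 16 were called lower (12 by edgeR and 13 by DESeq2). The 10 fibroblast markers summed to 33881 to 115634 and 159412 to 257538, with 7 called higher. The 9 macrophage markers summed to 1434 to 3318 and 4961 to 6872, also with 7 called higher. The 7 tendon and ligament markers summed to 2802 to 7424 and 9636 to 14426, with 5 called higher (3 called by edgeR and 6 by DESeq2). For these 4 lists the groups did not overlap. The 7 osteoclast markers summed to 1842 to 13767 and 10088 to 38544, with 6 called higher (4 by edgeR and by DESeq2) and a median log2 difference of 2.82, the largest of the 14 marker lists in size. The 8 osteoblast and osteocyte markers summed to 1122 to 7587 and 6305 to 12921, with 4 called higher (2 by edgeR and by DESeq2) and a median of 1.62. In both lists control replicate 1 lay above a library labelled knockout. The groups also overlapped for the 9 endothelial markers (5316 to 6913 and 4170 to 8442, 0 called), the 8 fat cell markers (599 to 2461 and 1241 to 1838, 0 called) and the 8 chondrocyte markers in the table (1167 to 7466 and 2017 to 3683, 1 called higher). So they did for the 8 platelet and megakaryocyte markers in the table (420 to 977 and 352 to 752). Of these 6 were tested and 0 called, with a median log2 difference of -1.09. In these last 4 lists 0, 0, 1 and 4 genes had an unadjusted limma p under 0.05, as did 5741 of all 14949 genes tested. For the same lists edgeR called 0, 0, 1 and 0, and DESeq2 called 0, 1, 1 and 1. The 8 erythroid markers, described with the processing, had a median log2 difference of -1.93, with overlapping sums and 0 called. No marker was at 0 in all 8 libraries, and Matn3, Gp9, Gp6 and Lor were at 0 in some.

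Each member was therefore also set against the mean log2 value of a marker list in the same library, a comparison chosen after the values were seen and given without a test. For Thbs2 the fibroblast markers came first. Its log2 value minus their mean was -1.52, -1.75, -1.36 and -1.50 in the control libraries and 0.47, -0.57, 0.10 and -0.49 in those labelled knockout, a difference of 1.41 with no overlap. Against the tendon and ligament markers Thbs2 differed by 1.67 and against the macrophage markers by 1.70, again without overlap. Against the osteoclast markers it differed by 0.21, with overlap. Thbs4 relative to the tendon and ligament markers overlapped, at 3.25, 3.78, 3.53 and 3.54 in the control libraries and 2.75, 3.84, 3.31 and 3.73 in the others. The overlap was not particular to that list. Thbs4 differed by -0.08 against the macrophage, -0.35 against the osteoblast and osteocyte and -0.37 against the fibroblast markers, each with overlap. Against the muscle markers it differed by 1.87 without overlap. Thbs3 relative to the fibroblast markers was -1.57 ± 0.43 and -2.24 ± 0.30, with overlap. Thbs1 relative to the tendon and ligament markers went from 1.38 ± 0.18 to 0.72 ± 0.71, with overlap. Against the chondrocyte markers Thbs3 differed by 0.28 and Thbs1 by 0.05, both with overlap.

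For Cd36 the comparison was with muscle. Its log2 value minus their mean was -3.72, -3.58, -3.16 and -3.48 in the control libraries and -3.85, -3.47, -2.94 and -3.25 in those labelled knockout, a difference of 0.11 with full overlap. Against the endothelial markers Cd36 was lower in each library labelled knockout than in any control (difference -0.53), and against the macrophage markers too (difference -1.85). Against the fat cell markers it differed by -0.62, with overlap. Cd47 relative to the macrophage markers went from 2.12 ± 0.38 to 1.23 ± 0.23 without overlap, and relative to the muscle markers from -6.18 ± 0.31 to -5.12 ± 0.12, also without overlap. The part of tissue proportions in these differences was not tested.

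**Figure D4:**
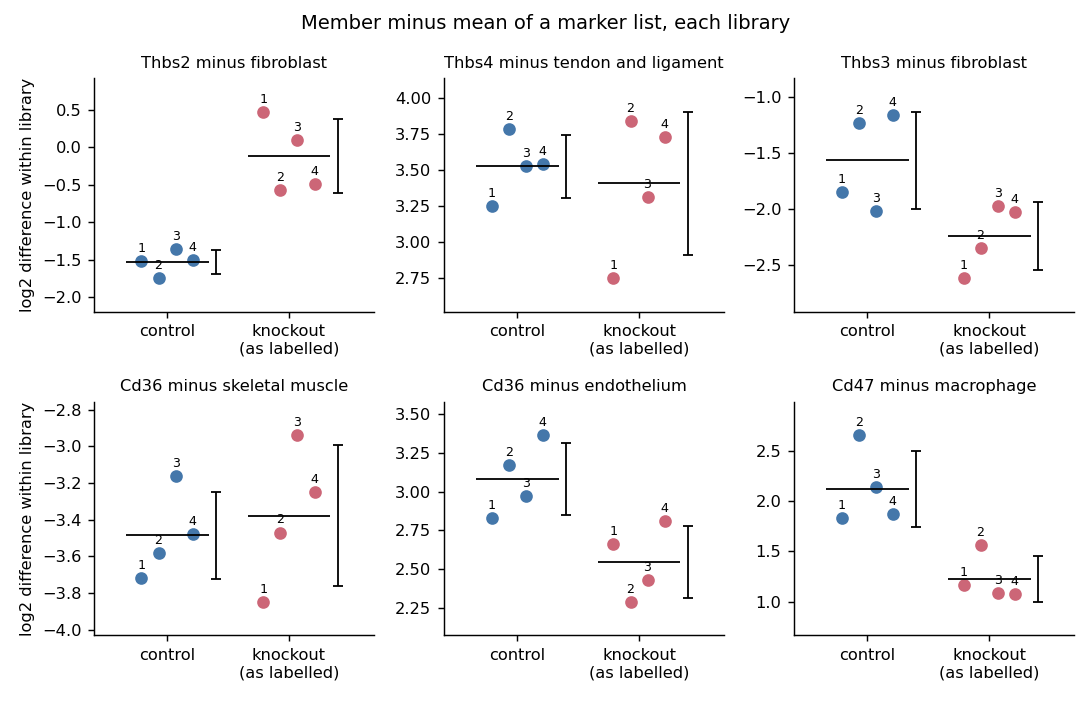
For 6 pairs of a gene and a marker list, the gene's log2 value minus the mean log2 value of the list's markers in each library, with group mean and 1 SD (n = 4). Thbs2 lies apart from the fibroblast markers between the groups, whereas Thbs4 against tendon and ligament markers and Cd36 against muscle markers overlap.

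Among 21 surface receptors and binding partners of thrombospondins, 8 were called higher and 2 lower, with a median log2 difference of 0.35 against 0.00 over all genes tested. The called genes were 47.6% of this list, against 23.2% of all genes tested. Sirpa, the macrophage receptor for CD47, had 634, 399, 630 and 565 normalised reads in the control libraries and 1362, 1126, 1053 and 1558 in those labelled knockout (log2 difference 1.20, SE 0.17, limma adjusted p = 0.00422). Its groups did not overlap. Lrp1, the endocytic receptor that clears thrombospondins 1 and 2, rose from 3647 ± 999 to 8838 ± 1797 (log2 difference 1.29, limma adjusted p = 0.00456). Sdc1, a heparan sulphate proteoglycan, rose from 295 ± 144 to 974 ± 180 (log2 difference 1.83, limma adjusted p = 0.00605).

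Beside Cd36, the other gene of that list called lower was Cacna2d1, the calcium channel subunit that binds gabapentin and thrombospondins, which also has a role in muscle. It went from 4990 ± 626 to 3824 ± 481 (log2 difference -0.38, limma adjusted p = 0.0496), with overlap, and it was called without control replicate 1 (adjusted p = 0.0253) and lost its call without each of the 7 others (adjusted p from 0.0561 to 0.123). Scarb2, a lysosomal relative of CD36, had means of 1983 ± 162 and 1704 ± 122 and was not called (limma adjusted p = 0.0953), nor was the integrin gene Itga4 at 185 ± 46.5 and 156 ± 19.2 (limma adjusted p = 0.420).

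Of 11 signalling genes acting below CD36 and CD47, 4 were called higher and 1 lower (2 and 1 without knockout replicate 4), with a median log2 difference of 0.06. The called genes were 45.5% of this list, against 23.2% of all genes tested. Gnai2, a G protein subunit, rose from 1949 ± 142 to 2816 ± 268 (log2 difference 0.53, limma adjusted p = 0.00707). Src, a tyrosine kinase also needed by osteoclasts, rose from 128 ± 53.5 to 331 ± 105 (1.38, limma adjusted p = 0.0118). Ptpn11, a phosphatase bound by SIRPA, fell from 2574 ± 303 to 1881 ± 165 (log2 difference -0.45, limma adjusted p = 0.0150). It was not called after quantile normalisation (-0.26, adjusted p = 0.0870) or the scaling on summed values (-0.30, adjusted p = 0.0590).

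In the list of latent TGF-beta activation and its targets, 4 of 14 genes were called, all higher, with a median log2 difference of 0.64. This is 28.6% of the list. Over all genes tested, 11.6% were called higher and 23.2% in either direction. DESeq2 called 6, and limma called 7 after the scaling on summed values described with the alternatives. Ltbp1, which anchors latent TGF-beta in the matrix, rose from 387 ± 96.3 to 739 ± 119 (log2 difference 0.95, limma adjusted p = 0.00880). Itgb8, an integrin chain that activates TGF-beta, rose from 16.9 ± 6.27 to 52.5 ± 15.8 at low level (1.59, limma adjusted p = 0.00911). Tgfb3 rose from 1028 ± 66.7 to 1331 ± 95.1 (0.37, limma adjusted p = 0.0148). The fourth was Tgfb1, at 439 and 879 (log2 difference 0.99, limma adjusted p = 0.0184). Among the target genes on the list, Ctgf (now Ccn2), Tgfbi, Smad7 and Skil had log2 differences of 0.56, 1.05, 0.20 and 0.56. These 4 were not called, at limma adjusted p-values of 0.142, 0.0676, 0.254 and 0.0732. Of all 14 genes, 10 had an unadjusted limma p under 0.05, not all of them higher. Over all genes tested, 5741 of 14949 had such a p. Tgfb2, the remaining TGF-beta gene of the list, had a log2 difference of -0.02 and was not called (limma adjusted p = 0.907). Tgfb1, Tgfb2 and the targets were singled out after their values were seen.

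Of 17 tested matrix partners and proteases, 7 (41.2%) were called, all higher (median log2 difference 0.81), where 11.6% of all genes tested were called higher. Mmp14, a membrane-bound collagenase, had 951, 720, 2187 and 605 normalised reads in the control libraries and 6273, 4581, 3252 and 5370 in those labelled knockout (log2 difference 2.28, limma adjusted p = 0.00511). Within the knockout group its order of libraries was that of Thbs2. Col5a1, a collagen V chain, rose by 1.96 (limma adjusted p = 0.00724) and Adamts4, an aggrecanase with a type 1 repeat, by 2.33 from 25.4 ± 16.2 to 116 ± 31.7 (limma adjusted p = 0.00828). Of 17 tested genes for other proteins with type 1 repeats, 6 (35.3%) were called, all higher (median 0.78). Among them were Spon1 (2.47, limma adjusted p = 0.00556), Spon2 (2.28, limma adjusted p = 0.0101) and Thsd7a (1.22, limma adjusted p = 0.0107). Without control replicate 2 or knockout replicate 4 the count of matrix partners was 3, and without control replicate 4 it was 4. Of 6 tested angiogenic factors and receptors limma called 0 (1 at an unadjusted p under 0.05), as did edgeR and DESeq2, with a median of -0.27. Without knockout replicate 3, 3 of these 6 were called lower. A further listed gene, Hgf, failed the filter on low values, at means of 0.738 and 9.41 with the knockout label fully above. With no filter, 1 gene of the list was called, and it was higher. Hgf was named after its values were seen.

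Thrombospondins are folded in the endoplasmic reticulum with chaperones, and 5 of 10 such genes were called, all higher (median log2 difference 0.42). The count was 3 without control replicate 2 or 4 or knockout replicate 2, and 2 without knockout replicate 4. Pdia3 rose by 0.89 (limma adjusted p = 0.00608), Pdia4 by 0.84 (limma adjusted p = 0.0148) and Hsp90b1 by 0.46 (limma adjusted p = 0.0167), the last not called without knockout replicate 4 (adjusted p = 0.0512). Atf6, the stress sensor that thrombospondin 4 is known to bind, had a log2 difference of -0.14 and was not called (limma adjusted p = 0.240). Of 12 genes that handle the fatty acids taken up by CD36, 5 (41.7%) were called, all lower (median -0.41). The count was 3 without control replicate 2 or 4 or knockout replicate 2. Over all genes tested, 11.6% were called higher and 11.6% lower. Acsl1, which activates long-chain fatty acids, fell from 5630 ± 806 to 3099 ± 374 (log2 difference -0.86, limma adjusted p = 0.00422). Fabp3, the fatty acid-binding protein of heart and skeletal muscle, fell from 10040 ± 3103 to 4847 ± 551 (-1.01, limma adjusted p = 0.00765), and Slc27a1, a fatty acid transporter, from 3024 ± 213 to 2171 ± 250 (-0.48, limma adjusted p = 0.0107). Fabp4, a marker of fat cells and capillaries, was at 2614 and 2369 (-0.17, limma adjusted p = 0.518). Atf6 and Fabp4 were singled out after their values were seen. The muscle marker sums given above moved the same way as this list, and the fibroblast, macrophage, osteoclast and osteoblast markers the same way as the lists called higher. Their part in these list counts was not tested.

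**Figure D5:**
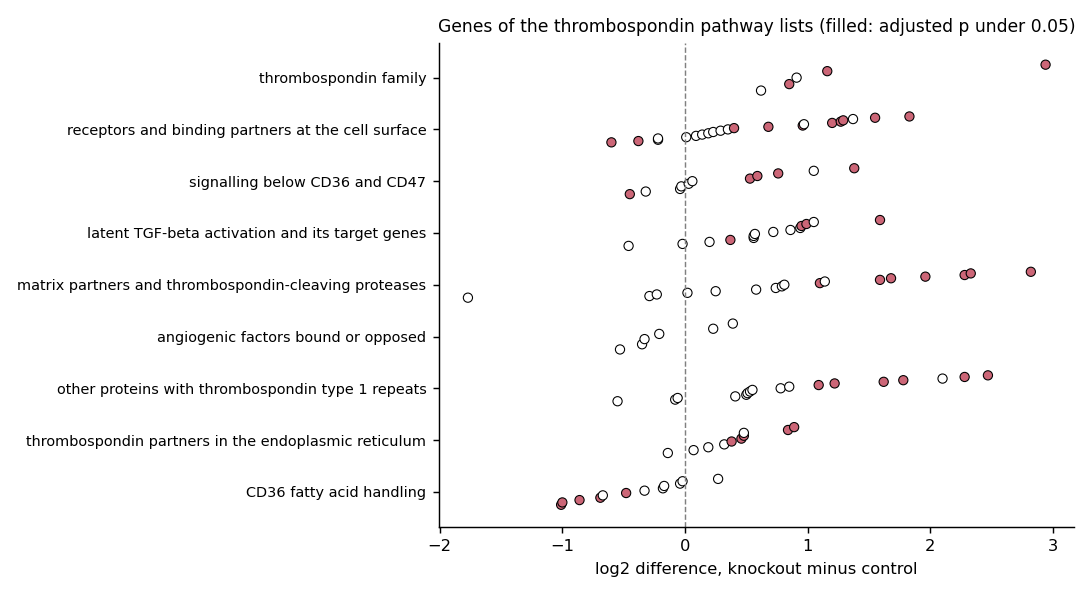
Each point is a tested gene of one of 9 lists and its log2 difference, knockout minus control as labelled; filled points passed a limma adjusted p under 0.05. Filled points below 0 appear in the lists of receptors (2), signalling (1) and fatty acid handling (5), and the angiogenic list has no filled point.

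The genes most like each member were found by the root mean square difference between log2 values centred on their own mean over the 8 libraries, among 11646 genes with a mean of at least 50. The groups contribute to this likeness. Nearest to Thbs2 were Col16a1 (0.19), Col12a1 (0.21) and Camk4 (0.30), against a median of 1.60 over all genes, and Col16a1 and Col12a1 encode fibril-associated collagens. Nearest to Thbs4 were Bmper (0.17), Col8a1 (0.23) and Cxcl14 (0.23), and among the nearest to Thbs3 were Galnt7 (0.13) and C1qtnf2 (0.14). Nearest to Thbs1 were the complement gene C4b (0.28), which has a closely similar copy that can share its reads, Svep1 (0.34) and Gpr176 (0.35). Nearest to Cd36 were Uqcrc1 (0.07), Tufm (0.07) and Dlat (0.08), all encoding mitochondrial proteins. For Cd36 the median over all genes was also low, at 0.40. Nearest to Cd47 were Stk19, Cspp1 and Abi1, each at 0.07, in a range of values so narrow that the median over all genes was 0.35.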

How the data were processed

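Per the labels, about 400 ng of knee joint RNA entered a poly-A library preparation, and the authors processed reads against mm10. Per the submitters' processing notes the tools included HISAT2 and featureCounts, and the series text names DESeq2. Versions, annotation and strand setting are not given in the sources used here. The deposited signal is a size-factor-scaled read count per gene and library. In each column 100% of values were whole multiples of the smallest (tolerance 0.01). In control replicate 2 and knockout replicate 1 that step was 1.01 and 0.997, too near 1 to be informative alone. Depth was 13991000 to 17411617 reads. Of the columns, 0 lacked a sample.

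Genes reaching 10 in 4 or more libraries were tested with limma 3.58.1 (log2 of value plus a pseudocount of 1, trend, Benjamini-Hochberg adjustment, call under 0.05). Log2 differences stand on that scale, except those of alternatives that changed it and that of the summed thrombospondin level, which had no pseudocount. Single values were compared by exact two-sided permutation over 70 assignments. edgeR 4.0.16 and DESeq2 1.42.0 on recovered reads, other scalings, pseudocounts, filters, a replicate block, a muscle covariate and left-out libraries were alternatives. The fits were also run on simulated counts in which few genes differed, a check of the code and not of error rates in these data. Coordinates and exon lengths come from GENCODE M21, which held 99.2% of the symbols. Listed symbols missing from the table were sought under older names, and Matn1, Adgrb3, Gp1bb, Krt5, Krt14 and Krt1 were not analysed here. The further marker lists, for smooth muscle, erythroid cells, neutrophils and keratinocytes, had overlapping sums. Limma called 1 of 7 smooth muscle markers, which was higher, and 0 of 1 for keratinocytes. Of 8 neutrophil markers 0 were called, and 1 had an unadjusted limma p under 0.05. Of 8 erythroid markers 0 were called (1 by DESeq2), and all 8 had an unadjusted limma p under 0.05. The erythroid median log2 difference was -1.93.

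Named genes were the members, Comp, Loxl2, at most 3 called genes of smallest p per list, genes of the family and receptor lists whose direction was opposite to that of Thbs1, and the 3 nearest genes per member, of which 1 is not reported here, nor is 1 listed target gene. Members and lists were chosen with earlier results of these data known. Some genes stand on 2 lists, such as Col1a1 and Mmp9.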

Additional observations from a re-analysis of the deposited data

Results flagged for a closer look

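Single libraries stood apart within their group of 4, by a gap to the nearest library of over 0.829 of the group's range, in 4 of 72 groups of values examined, and chance alone gives about 1 in 20. Control replicate 3 stood above the other controls in Loxl2, at 10.15 on the log2(value + 1) scale. Knockout replicate 1 stood below its group in Gnai2, at 11.24. Knockout replicate 3 stood below its group in Ltbp1, at 9.14. Knockout replicate 2 stood above its group in Fabp3, at 12.47. None of the 6 thrombospondin and receptor genes had such a library.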

How the results depend on the processing

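Thbs2 kept its direction under every alternative run and lost its call only with the muscle score as a covariate (1.30, limma adjusted p = 0.997). That covariate, of whose variance 88.1% lay between the groups, left 0 genes called in all (583 at an unadjusted p under 0.05) and 0 members (1). Under it Cd36 was -1.08 and uncalled. Signs turned for Thbs1 (-1.11), Thbs3 (-0.67), Thbs4 (-0.77), Comp (-0.98), Loxl2 (-1.44), Itga4 (0.50), Itgb8 (-0.04), Col5a1 (-0.11), Spon2 (-0.02) and Pdia4 (-0.19).

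With the replicate block, 2018 genes and 2 members were called, and Thbs3 (0.85, limma adjusted p = 0.0544) and Thbs4 (1.16, limma adjusted p = 0.0852) were not. The numbers gave no sign of pairing, since same-numbered libraries deviated together with correlations of 0.21, -0.12, -0.23 and -0.06. Quantile normalisation left Cd36 at -0.34, uncalled, and brought Cd47 to a call (0.41). Cd47 was also called at a pseudocount of 5 (0.35, limma adjusted p = 0.0495), by DESeq2 (0.35) and after scaling on the summed value of genes, leaving out muscle and blood lists and the top 50 genes (0.50), an alternative chosen after seeing the data. That scaling moved the median of all genes to 0.15 and the share of calls that were higher to 77.5% (2706 higher, 787 lower, against 1732 and 1729), with Cd36 at -0.45 and still called. The cause of these changes was not tested.

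Leaving out single libraries gave 1740 to 3832 called genes (1740 without knockout replicate 4, 1909 without control replicate 2, 2209 without control replicate 4) and 2 to 5 called members. Differences ranged from 0.65 to 1.04 for Thbs3, 0.87 to 1.41 for Thbs4 and 0.25 to 0.43 for Cd47. The log2 ratio of Thbs1 to Thbs3 (-0.54 to 0.10) and that of Thbs1 to Cd47 (-0.08 to 0.67) changed sign. Of the 15 pairs, 0 to 9 passed the adjusted threshold, 9 without knockout replicate 3.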
